A study of Mus musculus with 28 samples.

Results

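Nerves at postnatal day (P) 14, where Schwann cells were building myelin, were compared with nerves at embryonic day (E) 17, where Schwann cells were still immature. The comparison rests on 8 of the 28 bulk RNA libraries of a timeline of nerve development, assigned by their stage labels, with 4 libraries at E17 (E17.5 in the study's text) and 4 at P14. All mice were wild type C57BL/6J and had not been perfused. Each E17 library was made from the sciatic nerves of 2 embryos of the same sex, and each P14 library from the sciatic nerves of 1 mouse. On both sides the epineurium and perineurium, the outer sheaths of the nerve, had been stripped by hand. E17 libraries therefore average over a pair of embryos while P14 libraries do not. The study took 2 samples from males and 2 from females at each stage, and the labels do not say which libraries these are. Read counts were available for 41605 genes, and all genes with enough counts for a test were considered, not a chosen set.

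Schwann cells are the glia of peripheral nerve. Immature Schwann cells divide, surround bundles of axons and sort out the large axons, and a sorted axon that carries enough neuregulin makes its Schwann cell leave the cell cycle and start to myelinate under the transcription factors Sox10, Pou3f1 and Egr2. The cell then wraps its membrane around the axon, and the wrapped membrane is compacted by a few very abundant proteins and is rich in cholesterol and galactolipids. Myelin also has uncompacted channels and ends, which carry their own adhesion proteins and face the node of Ranvier. A nerve also holds fibroblasts, blood vessels, macrophages and other cells, and the sciatic nerve holds axons but few if any neuronal cell bodies.

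The E17 libraries held 13899895 to 22612205 counts and the P14 libraries 21730556 to 32335676. Between 19245 and 20205 genes had at least 1 count in a library. In a chi-square comparison of pairs of libraries of one stage, the value per degree of freedom was 5.21 to 8.06 at E17. At P14 it was 9.91 for replicates 1 and 2, 15.9 for replicates 3 and 4, and 26.2 to 44 for the other pairs. The 10 genes with the most counts took 6.96 ± 0.200% (SD, n = 4) of an E17 library and 23.3 ± 0.742% (SD, n = 4) of a P14 library. Levels are given as CPM, a gene's counts in every 1000000 of its library, with totals scaled by edgeR's TMM factors, which assume that most genes do not change. The Schwann cell genes Sox10, S100b and Cdh19 were present at both stages, with means at E17 and P14 of 326 and 468 CPM for Sox10, 43.5 and 672 CPM for S100b and 252 and 265 CPM for Cdh19. In bulk tissue, fewer cells of a type and less RNA per cell cannot be told apart, and this holds for every fall and rise below.

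Of 17700 genes with enough counts, 5560 (31.4%) differed between the stages, by edgeR's quasi-likelihood test with a Benjamini-Hochberg adjusted p under 0.05 and a fitted fold change of at least 2, which is what "called" means below. A total of 3184 genes (18%) rose to P14 and 2376 (13.4%) fell. A change of at least 4-fold was fitted for 1539 of the risers and 1073 of the fallers. The 4 libraries of one stage did not overlap the 4 of the other for 5163 of the called genes. The same held for 5988 genes that were not called, so a lack of overlap alone does not mark a called gene. The split between rises and falls depends on the scaling: with total counts in place of TMM factors, 2039 genes rose and 4490 fell, and the median log2 fold change over the 17700 genes shifted from 0 to -0.48. Changes below are relative to the TMM scale, and directions of groups that this shift turns are named where they occur.

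**Figure D1:**
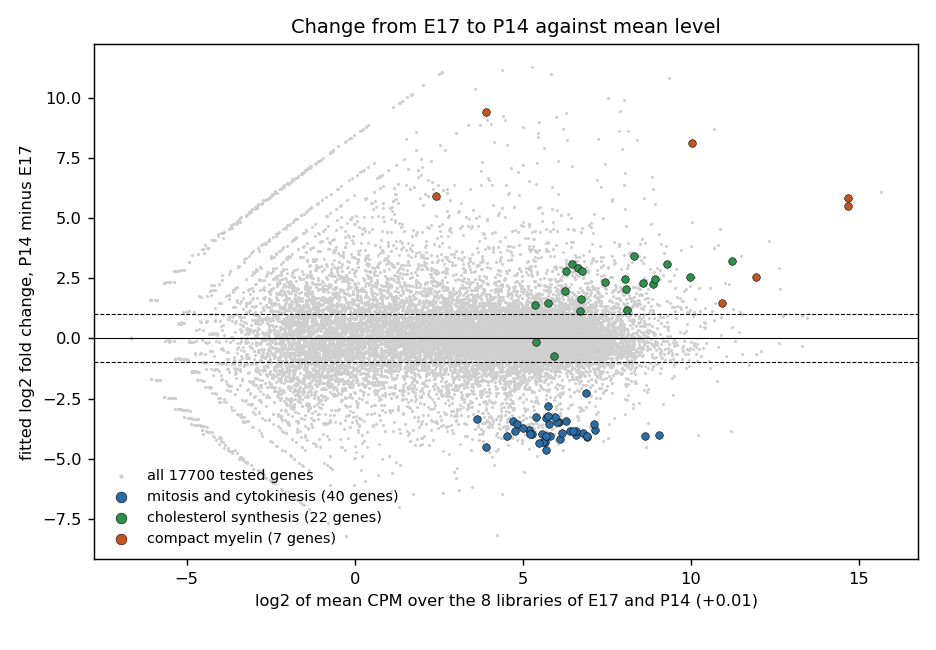
Each grey point is 1 of the 17700 tested genes, by the log2 of its mean CPM over the 8 libraries (x axis) and its fitted log2 fold change from E17 to P14 (y axis), and the dashed lines mark a 2-fold change. All 7 compact myelin genes (orange) and 20 of 22 cholesterol synthesis genes (green) lie above the upper line, and all 40 mitosis genes (blue) lie below the lower line.

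Of the 12 largest rises among genes with at least 10 CPM at P14 and more than 3 counts in some E17 library, 4 were in genes of the myelin sheath and the node of Ranvier. Ncmap, a membrane protein of non-compact myelin (chr4:135369576-135398227, minus strand, GRCm38), had 0.935, 0.264, 0.776 and 0.817 CPM in the E17 libraries and 1183, 1232, 1456 and 1319 CPM in the P14 libraries. Every P14 library lay far above every E17 library. The log2 fold change was 10.85 (SE 0.275, adjusted p = 1.07e-21). Drp2, the dystrophin relative that joins the outer Schwann cell membrane to periaxin, went from 6.66 to 9.05 CPM at E17 to 3051 to 3647 CPM at P14, a 418-fold rise. Gldn, or gliomedin, which Schwann cells secrete at the node and which gathers the axonal protein neurofascin, rose 707-fold, from 0.701 ± 0.425 to 479 ± 28.7 CPM (SD, n = 4). Gjb1, the gap junction protein connexin 32 of the non-compact channels, had 0.330, 0, 0.272 and 0.314 CPM at E17 and 139, 152, 177 and 162 CPM at P14.

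The other genes among these 12 have less familiar places in nerve. Ddn (dendrin, known from kidney podocytes and synapses) rose from 0.355 to 370 CPM and Slc36a2 (a proton-coupled amino acid transporter) from 0.534 to 520 CPM. Hepacam, a glial adhesion protein, rose from 0.358 to 147 CPM, and Sptb, the spectrin of red cell membranes, from 1.17 to 471 CPM. Red cell genes fell over the same interval, as given below. Frzb, a secreted Wnt antagonist, rose 517-fold to 88.7 CPM. Sec14l5, Rasgef1a and Fam178b complete the 12, with fitted rises of 603-fold, 445-fold and 395-fold. Ddn, Sptb and Fam178b share their locus with a gene on the other strand, and how the counting used the strand is not stated, so the share of each gene in these counts is uncertain.

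A further 422 of the called genes rose from at most 3 counts in every E17 library, and for these a fold is only a lower bound, set against 3 counts in the shallowest E17 library. Among them the highest means at P14 were those of Serpind1, Lctl, Lrtm2 and Serpinb6b. Serpind1 (heparin cofactor II, an inhibitor of thrombin) had 114, 116, 128 and 106 CPM at P14 and at most 0.110 CPM in an E17 library, so that it was at least 615-fold higher. Lctl, Lrtm2 and Serpinb6b were at least 235-fold, 224-fold and 221-fold higher. Lctl overlaps Zwilch on the other strand.

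**Figure D2:**
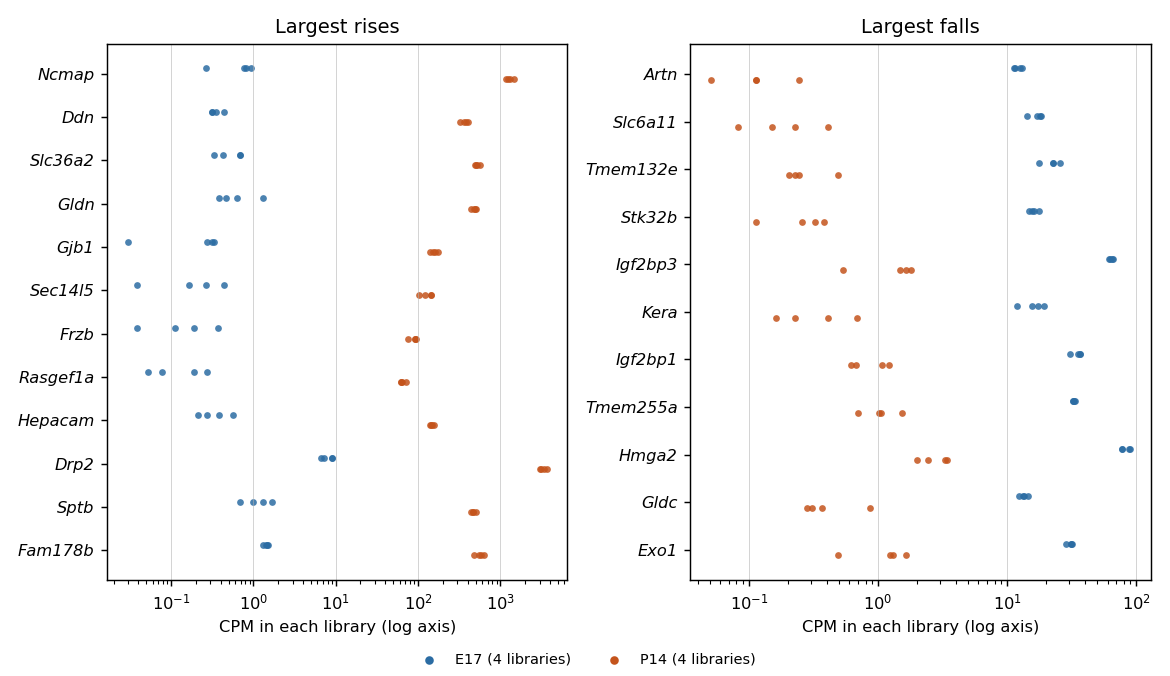
CPM in each library (x axis, log scale) of the 12 genes with the largest rises and 11 of the 12 with the largest falls among called genes with at least 10 CPM at the higher stage, with E17 in blue and P14 in orange. The libraries of the stages lie far apart for each gene drawn, and the single value of 0 (Gjb1 in 1 E17 library) is drawn at the left edge.

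All 7 measured members of a list of compact myelin genes were called higher, and their median log2 fold change was 5.83, against 0 over all tested genes. Pmp22, a membrane protein of compact myelin whose duplication causes the neuropathy Charcot-Marie-Tooth disease type 1A, had 857, 911, 937 and 943 CPM at E17 and 47900, 52570, 55240 and 51960 CPM at P14. Mbp, which glues the inner faces of the myelin membrane, had 1032, 1096, 1209 and 1133 CPM at E17 and 43960, 51400, 57220 and 53260 CPM at P14. The libraries of the stages lay far apart for both genes, and they rose 56.9-fold and 46.1-fold. Per kilobase of annotated exon, the level was 22060 CPM per kb for Pmp22 and 6076 CPM per kb for Mbp at P14. Pmp2, the lipid-binding P2 protein, started from 7.52 ± 2.36 CPM and reached 2103 ± 171 CPM (SD, n = 4), a 281-fold rise. Pmp2 and the clone-named gene Gm37389 overlap on the same strand and had nearly the same counts, so they are a single measurement here.

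The remaining compact myelin genes differed widely in level and in the size of their rise. Mal, a proteolipid that sorts myelin membrane, rose 5.89-fold from 1144 to 6738 CPM. With libraries scaled by total counts, 6 of the 7 were called higher. Mobp, a gene of central myelin, had at most 3 counts in an E17 library and 29.9 ± 2.02 CPM (SD, n = 4) at P14, at least 159-fold higher. Myoc (myocilin, a secreted protein also found in nerve) rose from 0.174 to 10.5 CPM. Of 20 genes that cause Charcot-Marie-Tooth disease through Schwann cells, 8 were called higher and none lower (6 and 1 with total-count scaling). Besides the structural genes these were Egr2, Ndrg1 (3397 CPM at P14, a 14.6-fold rise), Sbf2 and Arhgef10, while the phosphatases and adaptors Mtmr2, Fig4 and Sh3tc2 had log2 changes of 0.85, 0.82 and 0.48 and were not called.

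Genes of non-compact myelin and the internode followed: 17 of 28 were called higher and 1 lower (15 and 4 with total-count scaling), with a median log2 fold change of 2.09. Prx (periaxin, which organises the outer membrane into appositions) rose from 577 ± 47.5 to 9688 ± 815 CPM (SD, n = 4). Cldn19, the tight junction claudin of Schwann cells, rose 28.8-fold to 2043 CPM, Pllp (plasmolipin) 74.2-fold to 922 CPM, and Cdh1 (E-cadherin, which holds the sheath's loops to each other) 78.5-fold to 317 CPM. Adhesion molecules of the inner membrane differed among themselves. Cadm3 and Cadm2 rose by 6.41 and 2.77 on the log2 scale, Mag rose 7.69-fold, and Cadm4 and Cadm1 had log2 changes of 0.54 and -0.93. The member that fell was Epb41l3, the band 4.1B protein of the axonal internode and paranode, from 472 ± 27.5 to 78.8 ± 5.0 CPM (SD, n = 4). The polarity genes Pard3, Nectin3 and Nectin1 had log2 changes of -0.39, -0.53 and -0.48, none called.

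Of 20 genes of the node and paranode, where sheath and axon meet, 7 rose and 4 fell, and with total-count scaling 5 rose and 6 fell and the list's median log2 fold change of 0.46 turned to -0.03. Nfasc rose 309-fold, from 2.15 ± 0.458 to 668 ± 27.9 CPM (SD, n = 4), with no overlap between the stages. This gene gives both a glial isoform at the paranode and an axonal isoform at the node, which counts per gene do not separate. Nrcam, Adam22, Kcna1 and Kcna2 were the other risers besides Gldn and Gjb1, with Kcna1 going from 35.0 to 374 CPM. Among the fallers, Scn9a and Scn8a make axonal sodium channels and Cntn1 an adhesion molecule of the axon. Scn9a fell from 48.2 to 2.75 CPM and Cntn1 from 214 to 56.4 CPM, and Scn8a had a log2 change of -1.14. Cntnap1 and Ank3 had log2 changes of 0.03 and -0.34 and were not called. Which cells these transcripts came from was not tested.

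Of 23 promyelinating factors 3 were called higher and 5 lower (3 and 9 with total-count scaling), and the share called, 34.8%, was near the 31.4% over all genes. Egr2, the master factor of peripheral myelin, had 19.6, 28.8, 26.6 and 32.8 CPM at E17 and 182, 159, 186 and 198 CPM at P14, a 6.73-fold rise (adjusted p = 4.75e-14). The libraries of the stages did not overlap. Its mean was higher still at P1 (270 CPM) and at P5 (290 CPM). Pou3f1, which acts before Egr2, had means of 33.6, 140, 109 and 53.6 CPM at E17, P1, P5 and P14, and was not called between E17 and P14 (log2 fold change 0.68). Nab1, an Egr2 partner, rose 4.51-fold and Tead4, a partner of Yap1, rose 25.6-fold to 24.3 CPM. Sox10 had a log2 fold change of 0.52 (SE 0.279) and was not called. Neither were Yy1, Yap1 and the sterol factors Srebf1 and Srebf2. The fallers were Hdac1, Hdac2, Nr2f1, Nr2f2 and Myrf.

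Negative regulators of myelination fell as a group, with 14 of 22 called lower and 1 higher and a median log2 fold change of -1.28. Sox11 had 15.2, 18, 16.7 and 16.5 CPM at E17 and 0.665, 0.961, 0.613 and 0.912 CPM at P14, the largest fall of the list among genes with more than 3 counts in some library of each stage. Sox2 fell 2.30-fold and Sox3 4.27-fold. The activity-dependent factors Egr1 and Egr3, family members of Egr2, fell 3.26-fold and 4.69-fold while Egr2 rose. Other members that fell were Hes1, Hey1, Hey2, Jag1, Etv4 and Etv5. Id2 went from 189 to 38.8 CPM while its relative Id3 rose from 15.2 to 43.7 CPM. Jun, the gene best known for holding injured Schwann cells out of myelination, was at 41.5 and 30.7 CPM and was not called.

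Of 20 genes of immature Schwann cells and precursors 12 fell and 2 rose, with a median log2 fold change of -1.41. Tnc (tenascin C, an embryonic matrix protein) had 722, 791, 736 and 848 CPM at E17 and 36.5, 32.6, 27.5 and 39.2 CPM at P14. The stages did not overlap, and the fall was 22.8-fold, the largest of the list. Ednrb, the endothelin B receptor, fell 16.2-fold from 2236 ± 80.9 to 138 ± 17.5 CPM (SD, n = 4), and Ngfr, the p75 neurotrophin receptor, 6.56-fold from 544 ± 37.0 to 82.9 ± 8.54 CPM (SD, n = 4). The adhesion genes Ncam1, L1cam and Cdh2 fell 4.41-fold, 2.68-fold and 2.65-fold. At P14 they had 145, 134 and 57.5 CPM left. The study describes Ncam1 and L1cam as also expressed by non-myelinating Schwann cells, and which cells these P14 transcripts came from was not tested. The intermediate filament gene Nes rose 2.68-fold. Gfap was the other riser by the test (0.443 ± 0.191 to 1.63 ± 1.03 CPM, SD, n = 4), but its libraries overlapped between the stages. Sox9, Vim, Cdh19 and Foxd3 had log2 changes between -0.47 and 0.07.

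Among signals between axon and Schwann cell, Erbb3 and Erbb2, which form the main neuregulin receptor of Schwann cells, had log2 changes of -0.62 and -0.47 and were not called, and 5 of the 24 genes of neuregulin and radial sorting signals rose and 3 fell, beside shares of 18% and 13.4% over all genes. With total-count scaling 4 rose and 8 fell. Erbb4, a further neuregulin receptor, rose 20.8-fold, from 1.29 to 26.9 CPM. Gpr37l1, a prosaposin receptor of glia, rose 32.6-fold to 326 CPM, and Prnp, whose protein signals to Adgrg6, rose 3.17-fold. Adgrg6 had a log2 change of -0.98 and was not called, although it was called lower in 6 of 19 other settings. Lama4, a laminin of immature endoneurium, fell from 2709 to 785 CPM. In the hedgehog pathway the ligand Dhh, by which Schwann cells instruct the perineurium, had means of 222 and 377 CPM and was not called. Of the pathway's 13 tested genes 4 fell and none rose (6 and none with total-count scaling). The 30.8% called was near the 31.4% over all genes. Hhip, an inhibitor and target of the pathway, fell from 24.8 ± 6.68 to 1.31 ± 0.704 CPM (SD, n = 4), and Gli3 and Gli2 fell 6.45-fold and 3.37-fold.

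Of 23 neurotrophic ligands and receptors 9 fell and 3 rose. Artn (artemin, a survival factor of sensory and sympathetic neurons) had 11.3, 11.6, 13.1 and 12.6 CPM at E17 and 0.0511, 0.113, 0.245 and 0.114 CPM at P14, the largest fall of any gene with at least 10 CPM at E17 by the named-gene rule. Gdnf of the same family fell 34.9-fold and Igf1 4.17-fold. Cntf, a survival factor of motor neurons, rose from 2.21 ± 0.225 to 345 ± 39.4 CPM (SD, n = 4), a 154-fold rise, although its locus overlaps Zfp91 on the same strand. The receptors Ret and Gfra1 rose 7.43-fold and 2.04-fold, and Gfra2, Gfra3 and Ntrk3 fell.

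Genes of cell division fell without exception among those listed. All 40 genes of mitosis and cytokinesis and all 37 of DNA replication were called lower, none of these 77 had overlapping libraries, and the median log2 fold changes were -3.86 and -2.99. Mki67, the marker of cycling cells, had 1006, 987, 1000 and 1051 CPM at E17 and 71.4, 55.1, 51.9 and 68.1 CPM at P14. The stages lay far apart, by 16.4-fold. Top2a, which untangles chromosomes, fell 16.6-fold from 754 ± 19.1 to 45.3 ± 7.63 CPM (SD, n = 4). Cdk1, the mitotic kinase, fell 16.1-fold from 182 to 11.3 CPM. The log2 changes of the mitosis genes ran from -4.63 (Bub1) to -2.27 (Anln). Anln also helps to shape the myelin of glia, and at P14 it kept 41.1 ± 1.59 CPM (SD, n = 4). The replication genes ranged from -4.09 (Cdc6) to -1.49 (Pcna), and the helicase gene Mcm6 fell 9.56-fold.

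The division genes share short sequences in their promoters that the lists did not use. In windows from 250 bases before to 50 after the gene start (RefSeq, GRCm38.p6, 1 promoter a gene, either strand), TTTGAA was found in 24 of 33 mitosis genes with a promoter in the table (72.7%), in 3 of 30 replication genes (10%) and in 18.1% of all 27025 promoters. TTTGAA is known as the core of the element through which the DREAM complex represses mitotic genes. CCAAT stood in 24 of 33 mitosis promoters, in 18 of 30 replication promoters and in 37.9% of all promoters. GGGCGG stood in 27 of 33 mitosis promoters (81.8%), in 20 of 30 replication promoters (66.7%) and in 36.0% of all promoters. TTTCGCGC, a form of the E2F site searched after the others were seen, stood in 5 of 30 replication promoters (16.7%), in 1 of 33 mitosis promoters and in 0.318% of all promoters. None of the motifs searched contains another, and a match shows only that the letters are there. The 150 bases before the start of 3 mitosis genes and of Mcm6 are shown to let the motif and its distance to the start be seen, with TTTGAA (or its reverse complement TTCAAA) in capitals for the first 3 and TTTCGCGC (as its reverse complement) for Mcm6.
Cdk1 (chr10:69352913-69353062, minus strand): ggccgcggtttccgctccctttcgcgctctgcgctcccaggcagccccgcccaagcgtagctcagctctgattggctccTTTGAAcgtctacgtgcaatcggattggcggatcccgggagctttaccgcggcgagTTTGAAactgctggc
Top2a (chr11:99024190-99024339, minus strand): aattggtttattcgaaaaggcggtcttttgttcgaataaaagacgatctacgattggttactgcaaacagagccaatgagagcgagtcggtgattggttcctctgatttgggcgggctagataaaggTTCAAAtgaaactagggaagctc
Cdc20 (chr4:118437344-118437493, minus strand): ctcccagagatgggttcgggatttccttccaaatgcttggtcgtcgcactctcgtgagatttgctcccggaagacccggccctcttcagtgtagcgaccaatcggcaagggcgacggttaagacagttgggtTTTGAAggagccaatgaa
Mcm6 (chr1:128359706-128359855, minus strand): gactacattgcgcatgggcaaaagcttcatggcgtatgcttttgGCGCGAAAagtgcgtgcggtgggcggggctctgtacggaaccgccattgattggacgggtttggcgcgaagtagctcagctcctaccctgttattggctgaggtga

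Inhibitors of cyclin-dependent kinases went in both directions, and of 18 inhibitors, D cyclins and pocket proteins 3 rose and 9 fell. Cdkn1a (p21) had 22.2, 18.8, 20.3 and 19.2 CPM at E17 and 460, 504, 552 and 551 CPM at P14, a 25.7-fold rise, and Cdkn1b (p27) rose 4.65-fold from 61.6 to 286 CPM. Cdkn1c (p57), known as an inhibitor of early Schwann cell differentiation, fell 3.22-fold from 146 to 45.4 CPM after 348 CPM at P1. Ccnd1, the D cyclin of dividing Schwann cells, fell from 1181 ± 55.4 to 228 ± 29.1 CPM (SD, n = 4), and Ccnd2, Cdk4, Cdk6 and Cdk2 fell with it. The pocket protein genes Rb1 and Rbl2 had log2 changes of 0.72 and 0.64 and were not called, while Rbl1, itself a cell cycle gene, fell 6.53-fold.

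Cholesterol synthesis rose in nearly every step: 20 of 22 enzymes were called higher, none lower (16 and 1 with total-count scaling), with a median log2 fold change of 2.32. Hmgcs1, which makes HMG-CoA at the head of the pathway, had 423, 492, 444 and 480 CPM at E17 and 4106, 4613, 4236 and 4283 CPM at P14. Lss, which closes the sterol rings, rose most, with 50.8, 60.3, 51.6 and 53.8 CPM at E17 and 499, 650, 614 and 559 CPM at P14 (log2 fold change 3.42, SE 0.122, adjusted p = 1.16e-18). The exceptions were Ggps1, which makes the isoprenoid for protein prenylation and not sterol, and Lbr, a sterol reductase of the nuclear envelope. Ggps1 had 44.3 and 40.0 CPM, and Lbr had a log2 change of -0.74. CCAAT was found in 15 of the 17 cholesterol genes with a promoter in the table (88.2%, against 37.9% of all promoters), and GGGCGG, frequent also among the division genes above, in 15 (88.2%, against 36.0%). The sterol element written TCACNCCAC was found in 1 of the 17 and in 1.22% of all promoters. Promoters of Mvk and Hsd17b7, printed as above with CCAAT or its reverse complement ATTGG in capitals, are shown as examples, among others, of promoters with several copies close to the start.
Mvk (chr5:114444119-114444268, plus strand): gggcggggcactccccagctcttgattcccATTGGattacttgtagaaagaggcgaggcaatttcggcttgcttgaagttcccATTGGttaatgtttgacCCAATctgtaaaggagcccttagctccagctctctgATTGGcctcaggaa
Hsd17b7 (chr1:169969206-169969355, minus strand): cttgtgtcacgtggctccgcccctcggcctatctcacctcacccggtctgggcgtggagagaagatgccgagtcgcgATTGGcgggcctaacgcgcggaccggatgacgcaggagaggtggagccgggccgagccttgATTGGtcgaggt

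Of 25 genes for sterol control, uptake and efflux 9 rose and 3 fell (6 and 5 with total-count scaling). The sensors Insig1 and Scap had log2 changes of 1.79 and 1.49, both called, while Srebf2 and Srebf1 had changes of 0.51 and 0.25. Apod, a lipid carrier of nerve, went from 13.5 ± 1.56 to 768 ± 144 CPM (SD, n = 4), and Abcg1, a sterol exporter, rose 13-fold. Soat1 and Lrp8 were among the fallers.

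Fatty acid synthesis rose too, with 20 of 34 genes higher and 1 lower and a median log2 fold change of 1.10 (13 and 3 with total-count scaling, median 0.61). Scd2, the desaturase of glia, had 2398, 2662, 2517 and 2487 CPM at E17 and 10060, 10650, 10450 and 10420 CPM at P14. Among the elongases, Elovl1, Elovl6 and Elovl7 rose by 2.75, 2.64 and 4.41 on the log2 scale, while Elovl5, which elongates polyunsaturated fatty acids, was at -0.58 and not called. Mgll, which degrades the endocannabinoid 2-AG, rose 16.2-fold. The single faller was Lpin2 (5.18-fold), while its relative Lpin1 rose 4.87-fold. In sphingolipid metabolism 12 of 29 rose and 1 fell. With total-count scaling 6 rose and 2 fell, and the median log2 change went from 0.72 to 0.23. Ugt8a, which makes the galactocerebroside of myelin, had 135, 159, 150 and 161 CPM at E17 and 3486, 3842, 3477 and 3574 CPM at P14, and Fa2h, which hydroxylates its fatty acid, rose 107-fold. Among the ceramide synthases, Cers2, which uses the very long acyl chains found in myelin, rose 6.17-fold and Cers4 4.17-fold, Cers5 was not called, and Cers6, which uses shorter chains, was the faller (2.19-fold).

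Of 30 genes of glycolysis and the lactate shuttle 6 rose and 4 fell, near the shares over all genes. With total-count scaling 4 rose and 8 fell, and the list's median log2 change of 0.11 was -0.38. The lactate exporter Slc16a3 had 21.7, 24.4, 32.2 and 25.3 CPM at E17 and 2.20, 3.50, 1.88 and 3.30 CPM at P14. Ldha fell 2.29-fold from 457 CPM while Ldhb, the subunit suited to lactate use, rose 3.75-fold from 111 CPM. Aldoc, the aldolase of brain glia, rose 31.8-fold from 0.950 CPM. Of 80 nuclear-encoded genes of the respiratory chain 6 were called, each of them higher, and 4 were called without P14 replicate 3 and 3 with total-count scaling. These were Ndufa13, Uqcr11, Uqcrq, Atp5s and the muscle or fat isoforms Cox7a1 and Cox8b, of which Cox8b had overlapping libraries and Ndufa13 shares its locus with Tssk6 on the other strand. The list's median of 0.13 was -0.36 with total-count scaling. The 82 tested cytosolic ribosomal protein genes gave no call in either direction by edgeR, by limma-voom or by DESeq2's Wald test, although 42 had an unadjusted p under 0.05 and 39 an adjusted p under 0.05, beside 10765 and 10001 of all 17700 genes whatever their fold change. None of those 39 reached a 2-fold change, and the median log2 fold change was -0.34. With total-count scaling 24 of them were called lower.

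Genes of fetal growth fell widely. Of 29 tested oncofetal and imprinted genes 20 fell and 1 (Snrpn, 2.18-fold) rose, with a median log2 fold change of -1.77. Igf2bp3, an RNA-binding protein of embryonic tissue, had 61.0, 66.4, 63.0 and 65.1 CPM at E17 and 1.79, 1.47, 0.531 and 1.63 CPM at P14, and Igf2bp1 fell 38.4-fold. Hmga2, a chromatin protein of growing tissue, fell from 83.3 ± 6.14 to 2.80 ± 0.694 CPM (SD, n = 4). The paternally expressed genes Mest and Peg10 and the growth inhibitor Grb10 fell 11.5-fold, 5.67-fold and 6.64-fold. Igf2 itself was at 1061 and 1668 CPM and was not called, and H19 had a log2 change of -0.41. Igf2bp3 overlaps Malsu1, Mest overlaps Copg2, and Hmga2 and Igf2bp1 overlap further loci, each on the other strand. Among DNA methylation and Polycomb genes, 4 of 22 fell and 3 rose, against 9 and 1 with total-count scaling, and the 31.8% called was near the 31.4% over all genes. The fallers were Dnmt1, Uhrf1, Ezh2 and Suz12, of which the first pair copies methylation at replication. Ezh1, the relative of Ezh2 used in resting cells, rose 2.76-fold, and Cbx6 and Cbx7 rose 2.51-fold and 9.28-fold.

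Splicing regulators fell more often than they rose (11 and 2 of 27). The neuronal genes Elavl2, Elavl3, Elavl4 and Celf3 were among the fallers. The risers were Qk, which splices myelin genes (log2 change 1.02), and Esrp1, known from epithelia, from 0.341 to 4.85 CPM. Qk lay at the 2-fold threshold and lost its call in 8 of 19 other settings. Without P14 replicate 2 or E17 replicate 1 the risers numbered 1. Of 35 Hox genes, the factors of position along the body, 17 fell and 1 rose. Hoxb9 fell most, from 59.9 ± 5.94 to 3.14 ± 0.581 CPM (SD, n = 4). Without E17 replicate 2 the Hox risers numbered 2.

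**Figure D3:**
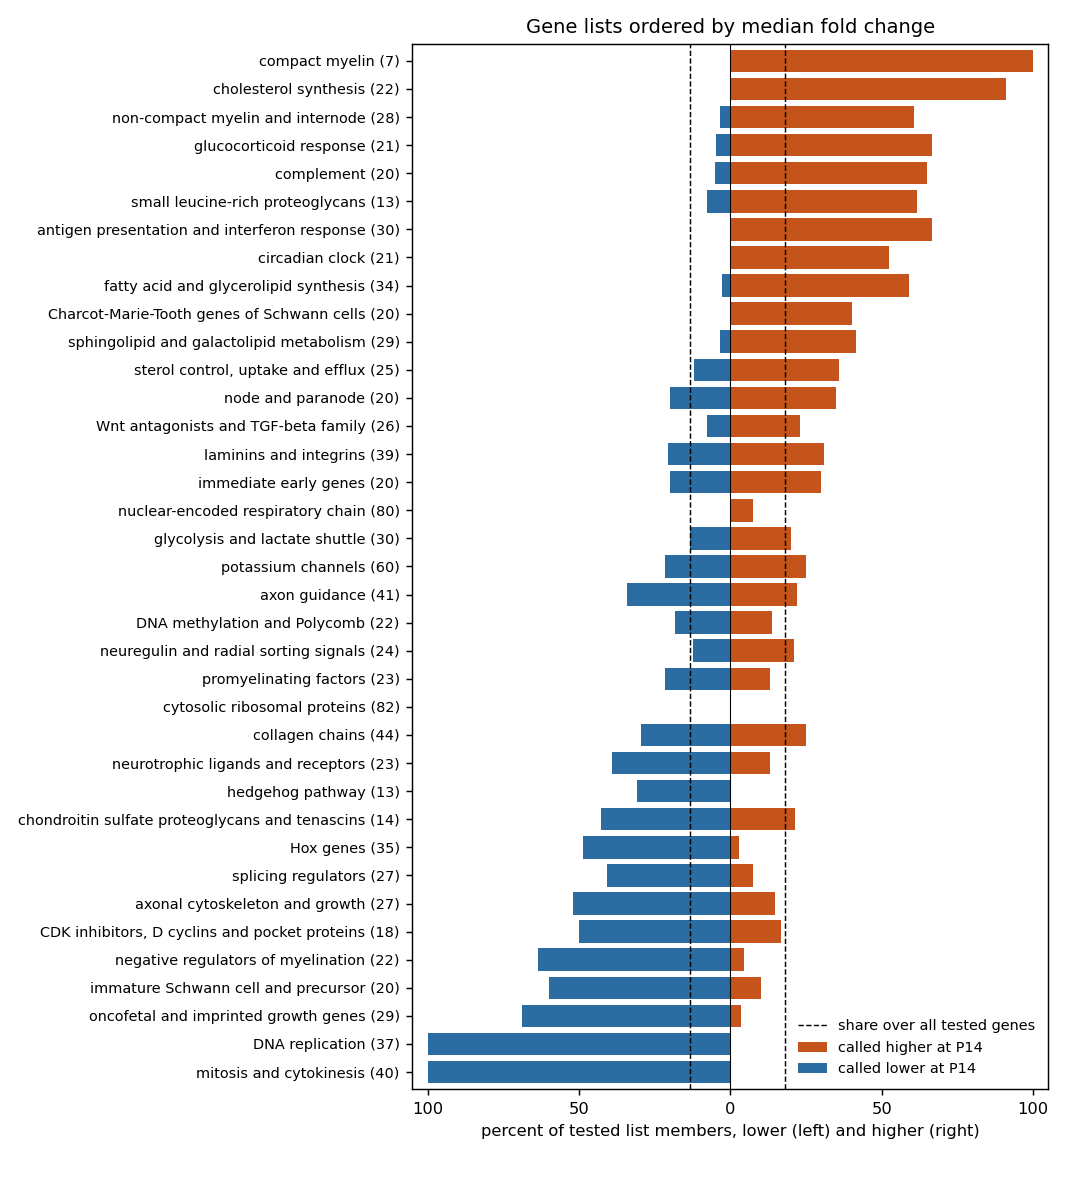
For each of 37 gene lists, bars give the percent of tested members (number in brackets) called higher at P14 (orange, right) or lower (blue, left), ordered by the list's median log2 fold change, and dashed lines mark the shares over all genes, 18% higher and 13.4% lower. Compact myelin and cholesterol synthesis stand at the top and both cell division lists at the bottom, while the ribosomal list has no bar.

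The 12 largest falls with at least 10 CPM at E17 held 3 oncofetal genes, Igf2bp1, Igf2bp3 and Hmga2, and the replication nuclease Exo1 (30.5 to 1.17 CPM). Besides Artn they included Slc6a11, the GABA transporter GAT3, which had 18.3, 17.9, 17.1 and 14.1 CPM at E17 and 0.409, 0.226, 0.0817 and 0.152 CPM at P14. Gldc, which breaks down glycine, fell 27.8-fold from 13.4 CPM, and Kera (keratocan, a matrix proteoglycan) 41.8-fold from 16.1 CPM. Tmem132e, Stk32b and Tmem255a fell 71.9-fold, 55.9-fold and 30.8-fold, and Tmem255a overlaps Zbtb33 on the other strand. Of 258 genes that fell to at most 3 counts in every P14 library, those with the highest means at E17 were Oprk1, the kappa opioid receptor, Npy5r, a neuropeptide Y receptor, Fndc3c1 and the embryonic muscle myosin Myh3. Oprk1 had 4.34, 6.29, 4.50 and 4.78 CPM at E17 and was at least 29.4-fold lower. Myh3 ranged from 0.581 to 8.36 CPM among the E17 libraries and was at least 25.0-fold lower.

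In the matrix, the fibrillar collagens with the most counts were not called. Col3a1 had 11100, 10760, 11930 and 11550 CPM at E17 and 8735, 8833, 7623 and 11290 CPM at P14, with overlapping libraries, and Col1a1 and Col1a2 had log2 changes of -0.64 and -0.18. Among 44 collagen chains 11 rose and 13 fell (6 and 18 with total-count scaling). Col23a1, a transmembrane collagen, rose from 7.67 ± 1.62 to 399 ± 23.4 CPM (SD, n = 4), and Col28a1, known from nerve, rose 4.43-fold to 509 CPM. The cartilage collagens Col2a1, Col9a1, Col9a3 and Col11a1 fell 11-fold, 10.9-fold, 4.98-fold and 4.27-fold. The study also used Col2a1 as a marker of endoneurial fibroblast-like cells, and which cells these transcripts came from was not tested. Col6a5 rose to 71.7 ± 50.3 CPM (SD, n = 4), with a wide spread among the P14 libraries. Of 13 small leucine-rich proteoglycans, which bind collagen fibrils, 8 rose and 1 fell, among them Ogn (osteoglycin, 136 to 1942 CPM), and Kera was the faller. Of 14 chondroitin sulfate proteoglycans and tenascins 3 rose and 6 fell: Tnxb rose 15.1-fold to 440 CPM, and Tnc and Vcan (versican, 176 to 46.4 CPM) were among the fallers. Of 39 laminins, integrins and nidogens 12 rose and 8 fell. Lamc1 and Lama4 fell, Lama5 and Lamc3 rose, and Lama2 and Lamb1 of the Schwann cell basal lamina had log2 changes of -0.73 and -0.64. Of 26 genes of Wnt antagonists and the TGF-beta family 6 rose and 2 fell, a share of 30.8% called beside 31.4% over all genes. Frzb and Dkk3 rose while Sfrp1 fell 6.99-fold from 250 CPM. With total-count scaling the medians of the last 2 lists turn negative, with 9 higher and 15 lower of the laminins, integrins and nidogens and 4 higher and 6 lower of the other list.

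Of 41 axon guidance genes 14 fell and 9 rose. The Slit receptors Robo1 and Robo2 fell 5.77-fold and 16.9-fold while the ligand Slit2 rose 8.24-fold to 299 CPM. The ephrin receptors Epha5, Epha7 and Ephb2 fell 8.4-fold, 6.08-fold and 4.33-fold, and Ephb6 rose 9.27-fold. Sema5a rose 27.1-fold from 32.4 to 878 CPM, and Plxnb1, a semaphorin receptor, 10.6-fold. Of 27 genes of the axonal cytoskeleton 14 fell and 4 rose. The neurofilament gene Nefl fell 11.2-fold from 54.2 to 4.83 CPM, with Nefm, Nefh, Ina and the motor Kif5a also lower. Sncg, Mapt, Syt4 and Dpysl4 rose, Sncg from 42.2 to 334 CPM. Of 60 potassium channel genes 15 rose and 13 fell, and with total-count scaling 13 rose and 15 fell and their median log2 change of 0.09 was -0.18. Kcnk1, a leak channel, rose 308-fold to 160 CPM, and Kcna4 fell 12.6-fold.

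Of 20 complement genes 13 rose and 1 fell. C4b had 0.220, 0.158, 0.0776 and 0.251 CPM at E17 and 45.3, 41.5, 55.4 and 42.2 CPM at P14. Cd55, Cd59a and Serping1, which restrain complement, rose 15.6-fold, 7.04-fold and 4.2-fold. C7 was the faller. Its P14 libraries held at most 3 counts, and it was at least 6.41-fold lower. Of 30 genes of antigen presentation and interferon response 20 rose and none fell, with a median log2 change of 1.5. Class I genes H2-K1 and H2-D1 rose 4.99-fold and 3.64-fold, and Ifit3 14.2-fold. Irf1, Stat2 and Mx1 had log2 changes of -0.03, 0.06 and -0.77. Of 21 glucocorticoid-responsive genes 14 rose and 1 fell. Zbtb16 rose from 0.557 ± 0.388 to 10.2 ± 2.26 CPM (SD, n = 4), and Sgk1, Tsc22d3 and Klf9 rose 13.8-fold, 5.91-fold and 4.79-fold. Fkbp5, a further target, was the faller (69.1 to 29.7 CPM). Of 21 clock genes 11 rose and none fell (7 and 1 with total-count scaling). Nr1d1 and Dbp, outputs of the clock, rose 8.04-fold and 13.9-fold, while Arntl, Clock and Cry1 had log2 changes of 0.29, 0.80 and -0.20. The hour at which nerves were taken is not given in the sources used here, and how far it moved these genes was not tested. Nr1d1 overlaps Thra on the other strand. Of 20 immediate early genes 6 rose and 4 fell, and with total-count scaling 2 rose and 6 fell and their median log2 change of 0.16 was -0.33. Atf3, a factor of nerve injury, fell 7.74-fold from 97.9 CPM.

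The intermediate stages of the timeline, P1 and P5, show when each change came. They entered the fit across all libraries, and with the 8 libraries of E17 and P14 alone 15271 genes were tested and 4846 called. The median log2 ratio of mean CPM + 0.1 to E17 for compact myelin was 0.95 at P1, 4.62 at P5 and 5.52 at P14. Its members with the most counts had risen further by P1 than that median: Pmp22 had means of 912, 7690, 26970 and 51920 CPM at E17, P1, P5 and P14. Mbp had 1117, 7756, 27450 and 51460 CPM. Cholesterol synthesis went 0.68, 1.92 and 2.31, so most of its change lay between P1 and P5. Immature Schwann cell genes were at -1.18 already at P1 and at -1.44 and -1.41 later. The Hox list was likewise at -0.77, -0.87 and -0.76. Mitosis genes were lower at each later stage, at -1.02, -1.82 and -3.85. Complement was at 0.08, 0.79 and 1.72, and glucocorticoid-responsive genes were at -0.08 and 0.08 at P1 and P5 and at 2.02 at P14. These medians describe the lists, and differences in timing between lists were not tested.

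**Figure D4:**
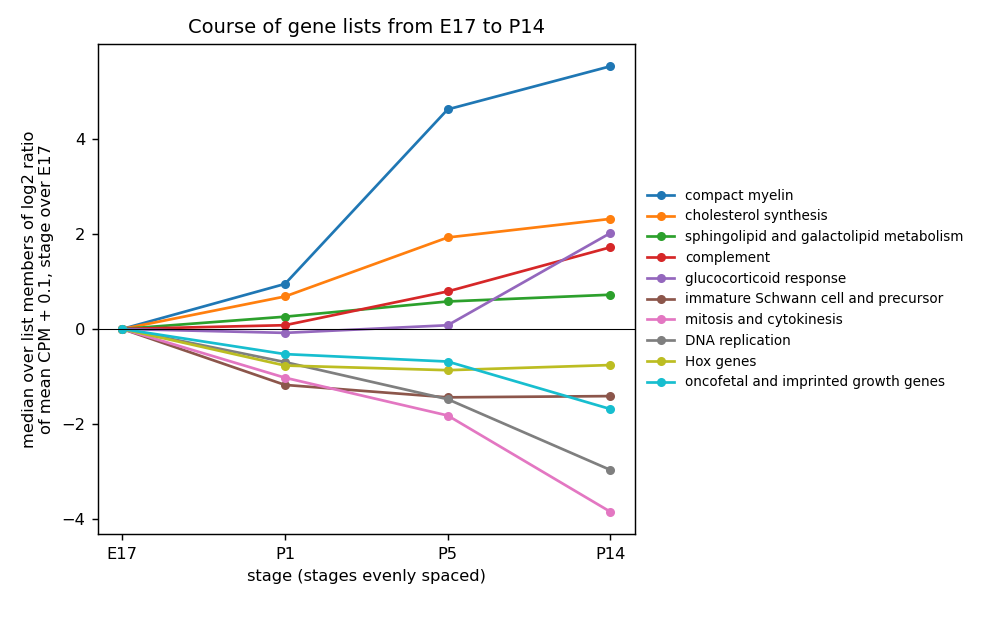
Median over list members of the log2 ratio of mean CPM + 0.1 at each stage to that at E17 (y axis), for E17, P1, P5 and P14 (x axis, evenly spaced). The median of compact myelin climbs mostly by P5, glucocorticoid-responsive genes only after P5, and the immature Schwann cell and Hox lists have reached their level at P1.

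Markers of other cells in the nerve were called to different extents, and what part their cells had in the results above was not tested. The shares called among endothelial (25%), endoneurial mesenchymal (30%) and macrophage (33.3%) markers were near the 31.4% over all genes. Of 12 endothelial markers 3 rose and none fell, and their summed level was 451 to 522 CPM at E17 and 541 to 629 CPM at P14, although their median log2 change of 0.41 was -0.08 with total-count scaling. Of the blood-nerve barrier genes 8 of 15 were higher and 1 lower, with sums of 582 to 631 and 1416 to 1593 CPM. Mfsd2a, the lipid transporter of barrier endothelium, had 4.07, 7.08, 5.0 and 4.78 CPM at E17 and 155, 176, 183 and 163 CPM at P14, although it is also made outside vessels. Slco1a4 was at least 128-fold higher. Among 11 pericyte and smooth muscle markers 6 rose, including the contractile genes Myh11 (1.33 to 42.8 CPM) and Tagln (2.71 to 114 CPM), while Cspg4, Kcnj8 and Abcc9 of pericytes had log2 changes of -0.12, -0.21 and -0.19, and the list summed to 255 to 298 and 728 to 847 CPM. Macrophage markers summed to 170 to 186 CPM and 282 to 367 CPM, with 5 of 15 higher and a median log2 change of 0.43, against 3 higher, 1 lower and -0.06 with total-count scaling. Cd163, of resident macrophages, rose 83.2-fold to 15.3 CPM, and Cx3cr1, Aif1 and Trem2 were not called.

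Red cell markers fell in 5 of 11 (8 with total-count scaling), with sums of 365 to 1011 CPM at E17 and 111 to 207 CPM at P14. Mast cell markers fell in 5 of 7 and rose in 1, with sums of 37.2 to 129 and 13.5 to 23.1 CPM. E17 replicate 4 was the highest in both lists. The mast cell markers called lower numbered 2 without it and 3 without P14 replicate 3 or P14 replicate 4. With the replicate number as a block, 3 mast cell and 8 red cell markers were called lower. Adipocyte markers rose in 9 of 11, and 7 of them, among them Adipoq, Plin1, Cfd and Lep, had at most 3 counts in every E17 library. Their sums were 65.4 to 90.5 CPM at E17 and 259, 210, 258 and 84.0 CPM in P14 replicates 1 to 4, so that the fourth overlapped the E17 range. The median log2 fold change of 7.0 in that list was 4.75 with those genes at their lower bound. Epineurial fibroblast markers rose in 6 of 10 (4 of 10 without P14 replicate 1 and 3 with total-count scaling), with sums of 419 to 476 and 555 to 763 CPM, and perineurial markers in 5 of 10, with sums of 481 to 516 and 779 to 920 CPM. Endoneurial mesenchymal markers split (1 higher and 2 lower of 10, Col2a1 among the lower), with sums of 397 to 495 and 366 to 454 CPM.

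Muscle markers rose in 2 and fell in 4 of 12, with sums of 12.3 to 42.2 and 43.1 to 57.1 CPM, and the fallers numbered 2 without E17 replicate 4. Cartilage markers fell in 2 of 4 tested, with sums of 96.1 to 120 and 33.4 to 47.2 CPM. Acan and Hapln1, which define cartilage, were under 1 CPM in mean at both stages. Epidermal markers summed to 4.15 to 6.07 and 8.98 to 13.7 CPM, with 2 of 5 higher and 1 lower and the defining gene Lor listed at 0 in all 8 libraries. None was lower without E17 replicate 2. Markers of neuronal cell bodies summed to 17 to 26.5 and 7.72 to 10 CPM, with 6 of 15 lower and 1 higher. Without E17 replicate 3 they numbered 2 and 0, and without E17 replicate 1 or P14 replicate 4 none was higher. Slc17a6, Scn10a and Chat, which define neuronal bodies, were under 0.1 CPM in mean at both stages.

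**Figure D5:**
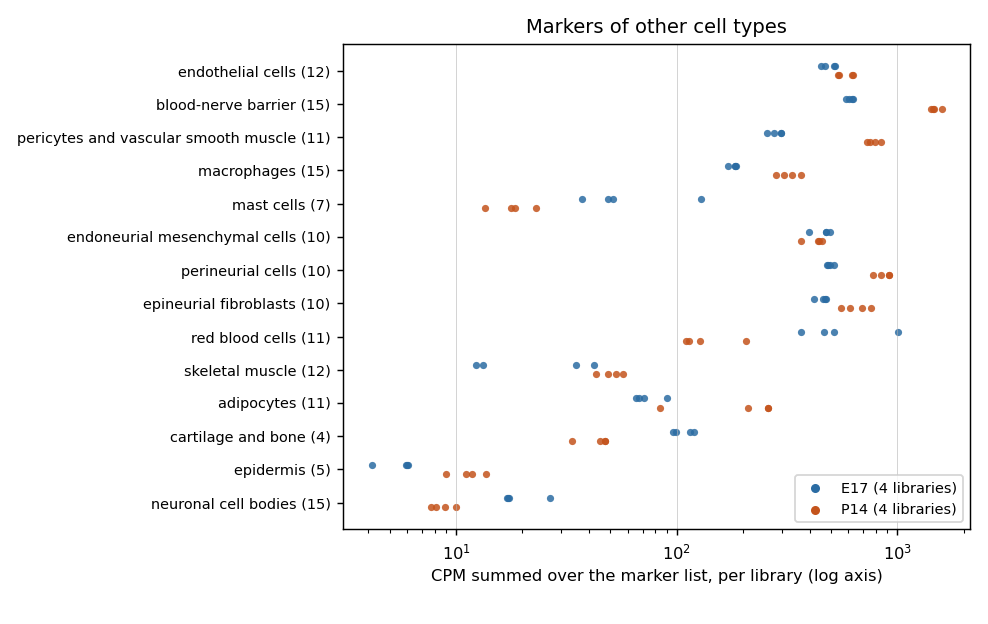
CPM summed over each list of markers of other cells (number tested in brackets) in each library (x axis, log scale), with E17 in blue and P14 in orange. Barrier, pericyte, macrophage and perineurial sums are higher in all 4 P14 libraries, red cell and mast cell sums are lower, and 1 P14 library stands low for adipocyte markers.

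Some genes held a large share of the counts. At E17 the 6 leading genes were Col3a1, the mitochondrial mt-Co1, Sparc, Col1a2, the elongation factor Eef1a1 and Col1a1. At P14 Pmp22 and Mbp were among the 6 leading genes, and so were mt-Co1 and Sparc with 14620 and 13350 CPM, both with less than a 2-fold change. Gm42418, a locus that overlaps ribosomal RNA sequence, was also among the 6 at P14, with 15420, 21970, 5669 and 1901 CPM in P14 replicates 1 to 4 and 808 to 2085 CPM at E17. Its libraries overlapped between the stages, and the share of the P14 libraries it took differed more than 10-fold between replicates.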

How the data were processed

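Per the labels and the methods of the study, the authors trimmed adapters and low-quality tails from single-end reads of poly-A-selected, stranded libraries, used STAR 2.6.1c for alignment and featureCounts to assign reads to genes. The deposited values are raw counts, not normalised. The submitters' processing notes name GRCm38.p5, and the methods name a human build, but the identifiers are mouse Ensembl genes, and coordinates here are GRCm38 from GENCODE, which matched all but 86 of 41605 identifiers. Strand and multimapper settings are not given in the sources used here.

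Counts of all 28 libraries (7 stages of 4) were fitted with edgeR 4.0.16 (TMM scaling, filterByExpr by stage, robust quasi-likelihood), and P14 was contrasted with E17, so the other stages helped to estimate the spread. Adjusted p-values in the report are from that test, over the 17700 genes, and those of other settings are over the genes each setting tested. Replicates were separate mice or pools. Other fits used DESeq2 1.42.0 and limma 3.58.1 in R 4.3.3. The fit was tested on simulated data in which 100 genes changed by 1.5 and 100 by 3 on the log2 scale. It called 99 and 100 of them, with 0 false calls. The other genes did not differ between E17 and P14 there and all had the same spread, so the simulation could not test the TMM assumption. Depth was 13899895 to 32335676 counts a library, so that 3 counts, the limit below which folds are given as bounds, equal 0.1885 CPM at E17 and 0.1695 CPM at P14.

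Named genes are the 12 largest rises and 12 largest falls (called, at least 10 CPM at the higher stage, more than 3 counts somewhere in each stage, no overlap, not a clone name), the 4 with the highest means among genes with at most 3 counts at the other stage, the 6 with the most counts, and members of 51 gene lists, with per-library values for at most 3 of a list. The comparison and the lists were chosen with earlier results of these data known. The values of some genes that these rules select are not reported here. Libraries with the same number deviated together across the stages (correlations 0.346, 0.225, 0.371 and 0.128), so the number was also used as a block. Libraries numbered 1 and 2 also deviated together (0.142 and 0.177), as did 3 and 4 (0.204 and 0.222), and the remaining pairs had correlations of -0.333 to -0.122, which also splits 1 and 2 from 3 and 4. How this split relates to the sexes was not tested.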

Additional observations from a re-analysis of the deposited data

Results flagged for a closer look

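Among 4 libraries, a single value was set apart where its gap to the nearest other value exceeded 0.83 of the whole range. Of 60 groups of library values checked 3 held such a value, and chance alone sets apart about 1 in 20. Oprk1 was at 0.1139 CPM in P14 replicate 4 and at 0 in the other P14 libraries, which is at most 3 counts. The TMM factor of P14 replicate 1 was 0.8341, against 0.8112 to 0.8146 in the other P14 libraries. The 10 leading genes took 22.21% of the counts of P14 replicate 1, against 23.58% to 23.79% in the others. The called genes numbered 5574 without that library.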

How the results depend on the processing

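Called genes numbered 4846 to 5874 with other scaling by size factors, filters, tests or sets of libraries, and 5396 to 5574 (3119 to 3201 higher and 2277 to 2380 lower) with 1 library left out. With library size only, 2039 genes were higher and 4490 lower, and 4415 called genes were shared with the TMM result. With no fold change minimum 10001 genes were called, 5221 higher and 4780 lower, and with glmTreat against a 2-fold change 3518, 2110 higher and 1408 lower. With the replicate number as a block (replicate block) 5548 genes were called, 5490 of them shared, and besides the mast cell and red cell counts given in the report it changed no list count by over 1.5 times and no call of a named gene. Of 295 named genes, 224 kept their direction and call in every setting tried. With library size only, the log2 changes of genes that were not called turned negative for Arntl (-0.204), Cdh19 (-0.419), Cers5 (-0.137), Cntnap1 (-0.463), Sh3tc2 (-0.012), Srebf1 (-0.241), Stat2 (-0.431), Trem2 (-0.461) and Yap1 (-0.310). With 1 library left out, log2 changes near 0 turned sign, with ranges of -0.078 to 0.035 for Irf1, -0.028 to 0.097 for Cntnap1, -0.118 to 0.090 for Sox9, -0.344 to 0.215 for Hapln1 and -0.087 to 0.185 for Trem2, none of them called. Calls near the thresholds were lost without E17 replicate 3 for Hey1 (log2 change -0.996) and Elavl3 (adjusted p by edgeR's quasi-likelihood test 0.0617), without E17 replicate 1 for Gfra1 (0.993), Uqcr11 (0.956) and Qk (0.994), without P14 replicate 2 for Atp5s (0.955) and Qk (0.958), and without P14 replicate 3 for Uqcr11 (0.918) and Uqcrq (0.946). Depth limits genes with at most 3 counts at a stage, whose folds are bounds only.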

Other observations

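Some gene families outside the lists of the report also differed between E17 and P14. They were chosen after their values were seen, so their counts are descriptions, to be read beside the 18% of all genes called higher and the 13.4% called lower. The clustered protocadherins, adhesion molecules that give neurons individual surface identities, differed by cluster. In the beta cluster 13 of 21 genes were called higher and none lower, with a median log2 fold change of 1.42, and Pcdhb17 rose from 3.86 ± 0.143 to 17.2 ± 2.11 CPM (SD, n = 4). In the alpha cluster 13 of 13 were called lower, but 12 of them had almost the same level (10.9 to 11.1 CPM at E17). These genes share their last exons, and they amount to a single measurement. The 21 tested genes of the gamma cluster, which share exons in the same way, gave no call by edgeR because their change was under 2-fold: 21 were lower at P14 (log2 changes of -0.46 to -0.34, adjusted p by edgeR's quasi-likelihood test 0.00188 to 0.0106). An unadjusted p under 0.05 was found for 21 of these, as for 10765 of all 17700 genes, and they too are close to a single measurement.

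Besides Slc6a11, Gabrb2, a GABA receptor subunit gene, fell 21.6-fold from 29.1 CPM. Sodium channel genes split: the beta subunit gene Scn3b rose from 36.2 to 285 CPM and Scn7a, known from Schwann cells, from 162 to 582 CPM, while Scn1a fell 17.8-fold. Of 9 guanylate-binding protein genes, which answer to interferon, 7 rose, among them Gbp2 8.42-fold to 22.1 CPM. Of 20 nucleoporin genes 12 fell and none rose, and of 20 genes of heterogeneous nuclear ribonucleoproteins 8 fell and none rose.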
